A study of Mus musculus with 30 samples.

Results

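ATF4 target genes and genes of amino acid supply were examined in primary telencephalon cultures of mouse embryos. The set held 34 genes, named as targets of the transcription factor ATF4 or as enzymes, transporters and tRNA synthetases that provide amino acids for translation. Of these, 33 were on the array under a single gene symbol, out of 12393 genes on it; Mars was not matched. The brightest probe set of each gene was used, and 30 members lay in the upper 60% of genes by mean signal, the 7435 genes that were tested. Membership was by gene name, with no threshold on a measured value, but earlier results of these data were known when the list was drawn up. In Xbp1-/- (knockout, KO) and Xbp1+/+ (wild-type, WT) embryos of Xbp1+/- parents, telencephalon was taken at embryonic day 12.5. Tissue of 6 knockout embryos was pooled, as was that of 4 wild-type embryos, and each pool was split over 15 dishes in serum-free Neurobasal medium with glutamine and B27. Brain-derived neurotrophic factor (BDNF, 100 ng/ml) was added to 10 of the 15 dishes of each genotype on day 3 in vitro. Lysis was on day 4 for the untreated (basal) dishes and for those given BDNF 24 h before, and on day 5 for those given it 48 h before. This gave 6 groups of 5 dishes, each dish hybridised to 1 array. The 48 h groups therefore differ from basal in BDNF and in 1 more day in culture, which cannot be told apart. Because every dish of a genotype came from 1 pool of embryos, p-values measure the spread between dishes only, and a difference between the genotypes cannot be told apart from a difference between the pools.

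ATF4 is translated when the initiation factor eIF2 is phosphorylated by one of a family of kinases that sense amino acid shortage, misfolded protein in the endoplasmic reticulum (ER), or other stress. It binds composite C/EBP-ATF elements, often as a dimer with a C/EBP protein, and switches on genes that make, import and load amino acids. XBP1 belongs to another arm of the ER stress response, the one started by IRE1, and BDNF is a growth factor of neurons that acts through the receptor TrkB and raises protein synthesis.

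The sequence of the composite element can be looked for in the promoters. The core of the composite element, TGATGNAA on either strand (TTNCATCA when read on the other strand), was searched in RefSeq windows from 250 bases before to 50 after the transcription start (GRCm38.p6). It was present in 10 of the 27 members with a window (37.0%; Mars, listed as Mars1, is among the 27), in 169 of 6095 tested genes (2.77%) and in 1219 of 27025 genes in all (4.51%). Among 24 other genes known as ATF4 targets it was present in 9 of 21 with a window (42.9%). Both lists hold genes already named as ATF4 targets, so a share above that of all genes does not test them. It was found in 0 of 8 genes from a list of other cytosolic synthetases and their partner proteins, and in 0 of 14 mitochondrial synthetase genes. The windows below belong to members whose signal changed under BDNF, with the match in capitals and each sequence on the strand of its gene.
Asns, chr6:7693199-7693258, minus strand: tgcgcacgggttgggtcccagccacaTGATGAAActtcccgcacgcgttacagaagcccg
Chac1, chr2:119351023-119351082, plus strand: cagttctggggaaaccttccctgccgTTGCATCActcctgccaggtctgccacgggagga
Gars, chr6:55037945-55038004, plus strand: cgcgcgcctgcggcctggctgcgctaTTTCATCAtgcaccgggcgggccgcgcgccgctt
Iars, chr13:49682111-49682154, plus strand: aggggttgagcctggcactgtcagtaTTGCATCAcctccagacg
Tars, chr15:11399640-11399699, minus strand: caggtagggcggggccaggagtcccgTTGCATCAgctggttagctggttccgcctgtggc
Trib3, chr2:152344036-152344072, minus strand: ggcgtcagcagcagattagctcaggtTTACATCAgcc
The match began 23 bases before the start in Asns, 193 in Chac1, 30 in Gars and 15 in Tars, and 7 and 14 bases after it in Iars and Trib3. Atf3, Aars, Slc7a11 and Yars held it as well. The members with no window in the table were Cars, Eif4ebp1, Lars, Nars, Slc7a3, Slc7a5 and Wars. Of members whose window held no match, Atf4, Ddit3, Psph, Mthfd2, Slc3a2, Sars and Eprs also rose after 48 h of BDNF in wild type. Ddit4 and Phgdh, without a match as well, fell there. Whether the match goes with the change under BDNF was not tested. A match is a run of letters and not a measured binding site.

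Values are log2 of the signal divided by the array's median signal, so that 0 is the median probe set of an array; levels of different genes rest on different probes and were not set against each other. The deposited signals had array medians of 81.9 to 128 in wild type and 96.7 to 138 in the knockout, and their number, 5 per group, limits the precision. The ratio of 3' to 5' signal of Gapdh, a measure of RNA integrity and amplification, was 2.57 to 3.05 over basal and 24 h arrays of both genotypes and 2.17 to 2.68 at 48 h. The cultures showed neuronal markers (Dcx 6.14 and Stmn2 5.89 on average) and progenitor markers (Fabp7 5.98, Sox2 3.76), and of 6 genes listed as astrocyte markers Gja1 read 5.05 and the other five -2.99 to -0.24 (Gfap -1.28). The endothelial gene Pecam1 was at the floor of 0.1 of the array median on 28 of 30 arrays and Cdh5 on 17. Xbp1 was not lower in the knockout by any of its 4 probe sets: the brightest differed from wild type by 0.22 at basal and another by 1.09. Which part of the gene is deleted is not given in the sources used here, so these probes check nothing about genotype, and the cultures are called knockout as labelled.

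After 48 h of BDNF, 16 of the 30 tested members had risen in wild-type cultures and 3 had fallen, and in the knockout 12 had risen and 1 had fallen (limma, adjusted p under 0.05 over all 7435 genes). Of all tested genes, 20.5% rose and 15.7% fell in wild type, and 19.4% and 9.46% did in the knockout. The members that rose were mostly on the supply side: 7 of 11 tRNA synthetases in each genotype, all 3 tested transporters in wild type (2 in the knockout), and 3 of 6 synthesis enzymes in each, Asns, Psph and Mthfd2. The members that fell were Eif4ebp1, in both genotypes, and Phgdh and Ddit4 in wild type. The median change of the members was 0.21 in wild type, where the median of all tested genes was 0.02, and 0.14 in the knockout, where it was 0.05. Both genotypes were set against their own basal arrays. Cell type markers moved as well. Of 8 neuronal markers, 5 rose in wild type at 48 h and Dcx fell (median change 0.59), and in the knockout Nefl, Nefm and Snap25 rose and Dcx fell (median 0.06, near that of all genes). Their mean level over the 8 was 3.45 to 3.69 on wild-type basal arrays and 3.96 to 4.17 at 48 h, and 3.47 to 3.67 and 3.75 to 4.13 in the knockout. Of the astrocyte list 2 genes were tested at 48 h: Aldh1l1 rose by 0.76 and 0.95 (wild type, knockout), and Gja1 fell by 0.30 and 0.23. Of 5 tested microglial markers Cd68 rose by 1.87 and 1.42, and 2 fell in wild type, Tyrobp and Csf1r. All 3 embryonic globin genes, a marker of red cells, fell, from a mean level of 1.29 to 2.38 to one of 0.61 to 1.15 in wild type and from 1.51 to 2.56 to one of 0.67 to 1.69 in the knockout. The part of any of these in the members' changes was not tested, and in bulk RNA fewer cells of a type and less RNA per cell cannot be told apart.

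**Figure D1:**
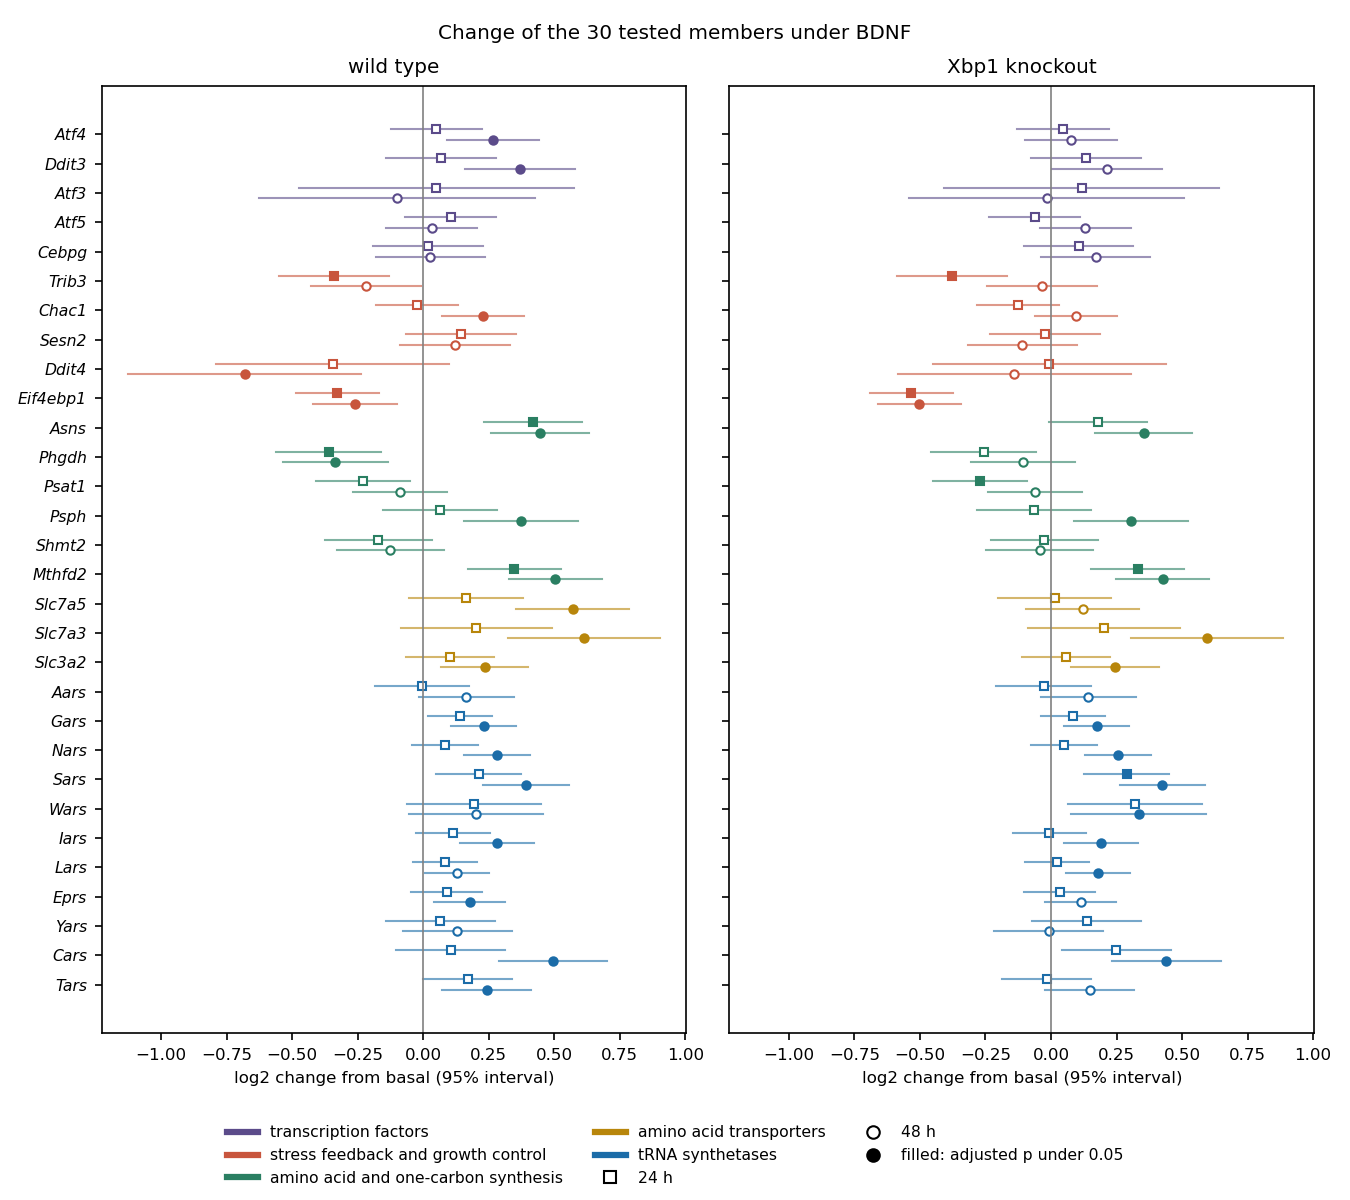
Log2 change from basal (horizontal axis) of the 30 tested members after 24 h (squares) and 48 h (circles) of BDNF in wild-type (left) and knockout (right) cultures; bars are 95% intervals of the fit, filled symbols passed an adjusted p of 0.05, and colours give the role of the gene. At 48 h, 16 filled circles lie above 0 in wild type and 12 in the knockout, 7 of them tRNA synthetases in each.

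The tRNA synthetases attach amino acids to their tRNAs. Sars, the seryl-tRNA synthetase, read 4.33, 4.34, 4.37, 4.24 and 4.17 on the wild-type basal arrays and 4.41, 4.54, 4.81, 4.73 and 4.92 after 48 h. Every 48 h array was above every basal array, and Sars rose by 0.39 ± 0.08 (SE, 1.31-fold, adjusted p = 0.00028). In the knockout Sars read 4.29, 4.07, 4.28, 4.27 and 4.50 at basal and 4.70, 4.64, 4.72, 4.69 and 4.77 at 48 h, a rise of 0.42 ± 0.08 (adjusted p = 0.000167), again without overlap. Cars, the cysteinyl-tRNA synthetase, had the largest change of the 11 in both genotypes. In wild type it went from 1.12, 1.26, 1.48, 1.51 and 1.44 to 1.62, 1.63, 2.10, 1.92 and 2.02, a rise of 0.50 ± 0.10 (adjusted p = 0.000309). In the knockout it went from between 1.28 and 1.60 at basal, with a median of 1.43, to 1.87, 1.81, 1.94, 2.02 and 1.74, a rise of 0.44 ± 0.10 (adjusted p = 0.00146). The 48 h and basal arrays of Cars did not overlap in either genotype.

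Nars, the asparaginyl-tRNA synthetase, was among the brightest members and rose by 0.28 ± 0.06 in wild type (adjusted p = 0.000607) and by 0.26 ± 0.06 in the knockout (adjusted p = 0.00213). Its wild-type basal arrays read 4.82 to 5.00 and its 48 h arrays 5.01 to 5.31, and the knockout arrays 4.91 to 5.10 and 5.17 to 5.40. Nars was therefore also free of overlap in both genotypes, although in wild type by a narrow margin. Gars, for glycine, rose by 0.23 and 0.17 and Iars, for isoleucine, by 0.28 and 0.19 in wild type and knockout. Tars (threonine) and Eprs (glutamate and proline) rose in wild type, by 0.24 and 0.18, with 0.15 and 0.11 in the knockout, which did not pass. Wars (tryptophan) and Lars (leucine) passed in the knockout, at 0.33 and 0.18, with 0.20 and 0.13 in wild type. Aars and Yars, for alanine and tyrosine, did not pass in either, with 0.16 and 0.13 in wild type; the knockout values were 0.14 and -0.01. The 11 changes ran from 0.13 to 0.50 in wild type with a median of 0.23. All 11 were above 0 under median, quantile and 75th-percentile scaling. They were so with values as deposited too, but there the median of all genes was itself 0.34. In the knockout the 11 changes ran from -0.01 to 0.44 with a median of 0.18. Leaving out 1 array ended several of the smaller calls. In wild type those of Tars (0.20 to 0.22) and Eprs (0.15 to 0.18) ended without basal array 1, 48 h array 3 or 48 h array 4, and that of Eprs also without basal array 3 or 5 or 48 h array 2 or 5. In the knockout those of Gars (0.16 to 0.17), Iars (0.15 to 0.20), Lars (0.15 to 0.17) and Wars (0.27 to 0.36) ended without basal array 1 or 2, and each without 2 or more 48 h arrays or other basal arrays in turn.

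The transporters bring amino acids across the plasma membrane. Slc7a5 encodes the light chain LAT1, which carries large neutral amino acids such as leucine. Its signal was 1.85, 1.77, 1.88, 2.33 and 1.92 on wild-type basal arrays and 2.60, 2.39, 2.70, 2.52 and 2.39 at 48 h, with no overlap, and rose by 0.57 ± 0.11 (1.48-fold, adjusted p = 0.0001). In the knockout it was 2.17, 2.32, 2.36, 2.21 and 2.33 at basal and 2.30, 2.30, 2.52, 2.45 and 2.44 at 48 h, a change of 0.12 ± 0.11 that did not pass (adjusted p = 0.413). Slc7a3, which encodes the cationic amino acid transporter CAT3, rose by 0.61 ± 0.14 in wild type (1.53-fold, adjusted p = 0.00112) and by 0.59 ± 0.14 in the knockout (1.51-fold, adjusted p = 0.00199). Its wild-type arrays read 0.22, 0.67, 0.44, 0.37 and 0.27 at basal and 0.87, 0.74, 1.67, 0.70 and 1.06 at 48 h. The knockout arrays read 0.95, 0.99, 0.84, 0.91 and 1.15 at basal and 1.97, 1.54, 1.55, 1.44 and 1.31 at 48 h. In both genotypes the lowest 48 h array of Slc7a3 was above the highest basal array. Slc3a2, the heavy chain that LAT1 pairs with, rose by 0.23 ± 0.08 in wild type (adjusted p = 0.0257) and 0.24 ± 0.08 in the knockout (adjusted p = 0.0242). Both calls of Slc3a2 ended without basal array 1 or without 48 h array 3 or 4 of the genotype, and in wild type also without 48 h array 5, with changes of 0.16 to 0.22 in wild type and 0.23 to 0.24 in the knockout.

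**Figure D2:**
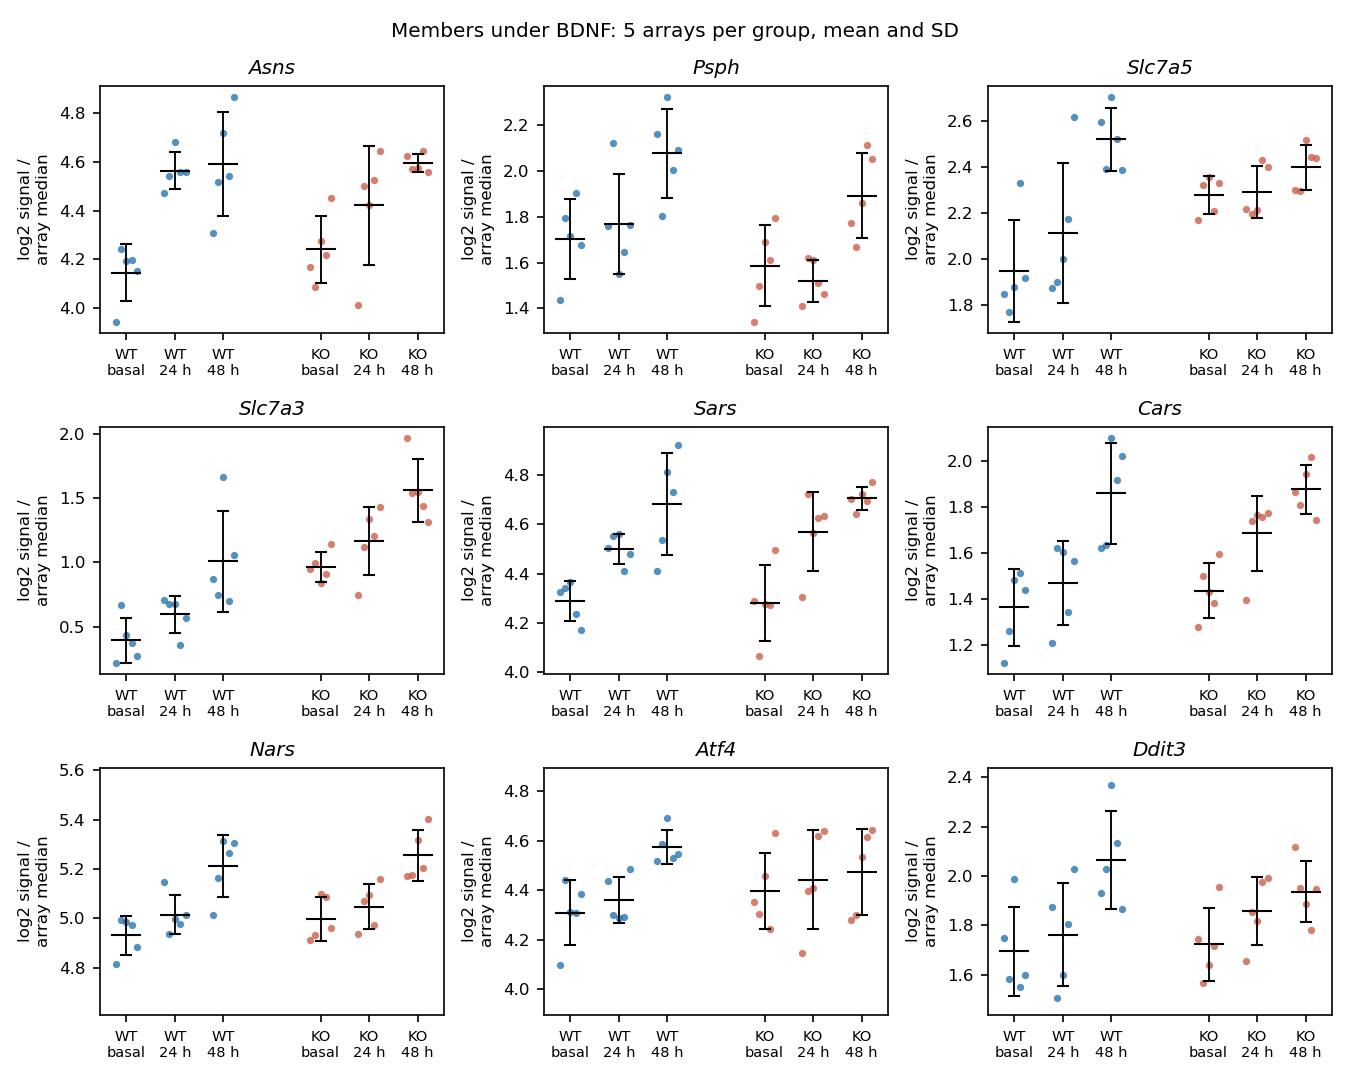
Log2 signal relative to the array median (vertical axis) of 9 members in the 6 groups; points are the 5 arrays of a group, in order of their number, and the bar and whiskers are mean and SD. Sars, Cars and Slc7a3 lie higher at 48 h than at basal without overlap in both genotypes, while Atf4 and Slc7a5 do so in wild type and overlap in the knockout.

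The synthesis enzymes split by gene. Asns, which makes asparagine, had already risen at 24 h in wild type: its arrays read 3.94, 4.24, 4.19, 4.20 and 4.15 at basal, 4.47, 4.54, 4.68, 4.56 and 4.56 at 24 h, and 4.31, 4.52, 4.72, 4.54 and 4.87 at 48 h. The change was 0.42 ± 0.09 at 24 h (1.34-fold, adjusted p = 0.00176) and 0.45 ± 0.09 at 48 h (1.36-fold, adjusted p = 0.000295). In the knockout the 24 h change was 0.18 ± 0.09 and did not pass (adjusted p = 0.21), and the 48 h change was 0.35 ± 0.09 (adjusted p = 0.00382). One knockout 24 h array of Asns read 4.01, under all basal arrays of its genotype, and the other four read 4.42 to 4.65. Mthfd2, a mitochondrial enzyme of folate metabolism, was the only member that rose at both times in both genotypes, by 0.35 and 0.50 in wild type (adjusted p = 0.00565 and 3.58e-05) and by 0.33 and 0.43 in the knockout (adjusted p = 0.0113 and 0.000406). Its wild-type arrays read 1.91 to 2.13 at basal, 2.18 to 2.49 at 24 h and 2.28 to 2.75 at 48 h, so that neither treated group overlapped basal. Without knockout 24 h array 2 the 24 h change there was 0.27 and did not pass (adjusted p = 0.0541), and a second Mthfd2 probe set changed by -0.05 at 48 h in wild type.

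Phgdh, Psat1 and Psph catalyse the steps of serine synthesis in that order, and they did not move together. Phgdh fell in wild type, by 0.36 ± 0.10 at 24 h (adjusted p = 0.0114) and by 0.33 ± 0.10 at 48 h (adjusted p = 0.00817), with -0.26 and -0.11 in the knockout, neither past the threshold. Its wild-type arrays overlapped, at 3.62 to 4.16 at basal, 3.26 to 3.97 at 24 h and 3.43 to 3.71 at 48 h. The 24 h call of Phgdh ended with values as deposited, with the mean of probe sets and in a fit of only the arrays compared. Its 48 h call ended with values as deposited as well. Psat1 fell at 24 h in the knockout, by 0.27 ± 0.09 (adjusted p = 0.0406), with -0.23 in wild type, which did not pass. Psph, the last step, rose at 48 h in both genotypes, by 0.37 ± 0.11 (adjusted p = 0.00712) and 0.31 ± 0.11 (adjusted p = 0.0311), with 0.06 and -0.07 at 24 h. The knockout call of Psph ended without basal array 1 or 2 or 48 h array 4 or 5 (0.24 to 0.28), and that of Psat1 without any of 8 of the 10 arrays, basal array 1 and 24 h array 3 being the others (-0.28 to -0.24). Shmt2, which turns serine into glycine in mitochondria, did not pass at either time, at -0.17 and -0.13 in wild type, with knockout values of -0.03 and -0.04.

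The transcription factors changed less. Atf4 mRNA read 4.10, 4.44, 4.31, 4.31 and 4.39 on wild-type basal arrays, 4.44, 4.30, 4.29, 4.29 and 4.49 at 24 h, and 4.52, 4.59, 4.69, 4.53 and 4.55 at 48 h. The 48 h arrays were all above basal, by 0.27 ± 0.09 on average (adjusted p = 0.0159), and the 24 h arrays were not. Without wild-type basal array 1, the lowest, the change was 0.21 and did not pass (adjusted p = 0.0629). The other Atf4 probe sets changed by 0.01 and -0.15 at 48 h in wild type, neither past the threshold, and the array measures mRNA, not the protein that the stress kinases control. In the knockout, Atf4 changed by 0.05 and 0.08. In wild type Ddit3, which encodes CHOP, rose by 0.37 ± 0.10 at 48 h (adjusted p = 0.00544), from 1.55 to 1.99 at basal to 1.87 to 2.37, with 0.21 ± 0.10 in the knockout, which did not pass. Atf3, Atf5 and Cebpg did not pass in any of the BDNF comparisons; their changes at 48 h were -0.10, 0.03 and 0.03 in wild type, against -0.02, 0.13 and 0.17 in the knockout. Cebpb lay below the filter, at -1.60 to -0.38 on wild-type basal arrays and -0.64 to -0.05 at 48 h. When all probe sets were fitted without a filter it rose there by 0.59 ± 0.19 (adjusted p = 0.0288).

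Of 5 genes of stress feedback and growth control, 2 fell at 24 h in each genotype, Eif4ebp1 and Trib3. Eif4ebp1 encodes 4E-BP1, which holds back cap-dependent translation until the kinase mTOR phosphorylates it. It read 2.15, 2.17, 2.27, 2.18 and 2.28 on wild-type basal arrays and 1.94, 1.95, 1.84, 1.89 and 1.80 at 24 h, with no overlap, and fell by 0.33 ± 0.08 (1.25-fold, adjusted p = 0.00393). In the knockout it read 3.37, 3.21, 3.24, 3.30 and 3.41 at basal and 2.68, 2.62, 2.85, 2.81 and 2.91 at 24 h, again with no overlap, and fell by 0.53 ± 0.08 (1.45-fold, adjusted p = 1.31e-05). The 48 h changes of Eif4ebp1 were -0.26 ± 0.08 (adjusted p = 0.00984) and -0.50 ± 0.08 (adjusted p = 1.35e-05). Both wild-type calls of Eif4ebp1 ended with values as deposited and with the mean of probe sets. Over all settings the wild-type 24 h change ran from -0.35 to -0.14. The knockout 48 h call ended with values as deposited, and the knockout 24 h call was kept in every setting. Trib3, a pseudokinase that ATF4 and CHOP induce and that feeds back on them, fell at 24 h by 0.34 ± 0.10 in wild type (adjusted p = 0.0221) and by 0.38 ± 0.10 in the knockout (adjusted p = 0.0148). At 48 h its changes from basal, -0.22 and -0.03, did not pass, and from 24 h to 48 h Trib3 rose in the knockout by 0.34 ± 0.10 (adjusted p = 0.0319). A second Trib3 probe set changed by -0.07 and -0.13 at 24 h, which did not pass. The 24 h call of Trib3 ended in wild type without basal array 1 or 2 or 24 h array 1 or 4 (-0.32 to -0.29) and in the knockout without 24 h array 1 (-0.29).

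Ddit4 encodes REDD1, an inhibitor of mTOR. It read 3.68, 3.16, 3.94, 4.11 and 3.89 on wild-type basal arrays and 3.00, 2.54, 2.91, 3.18 and 3.74 at 48 h, groups that overlapped, and fell by 0.68 ± 0.22 (1.60-fold, adjusted p = 0.015). In the knockout it changed by -0.14 ± 0.22, from 2.52 to 3.40 at basal to 2.53 to 2.95. Chac1, which breaks down glutathione, rose at 48 h in wild type by 0.23 ± 0.08 (adjusted p = 0.0207), with 0.09 in the knockout. The call of Ddit4 ended without wild-type 48 h array 2 (-0.55, adjusted p = 0.0556), and that of Chac1 without basal array 1 or 48 h array 3 or 4 (0.15 to 0.20). Sesn2, a leucine sensor upstream of mTOR, did not pass in any BDNF comparison, at 0.14 and 0.12 in wild type, with knockout values of -0.02 and -0.11.

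At 24 h alone, 2 members had risen (Asns and Mthfd2) and 3 had fallen (Trib3, Eif4ebp1 and Phgdh) in wild type, where 8.04% and 6.4% of all tested genes did. In the knockout 2 had risen (Mthfd2 and Sars, by 0.29 ± 0.08, adjusted p = 0.016) and 3 had fallen (Trib3, Eif4ebp1 and Psat1), beside 5.96% and 5.55% of all genes. The call of Sars at 24 h ended without knockout basal array 2 or 24 h array 2 (0.24 to 0.25). The counts of members at 24 h are near these shares. No synthetase passed in wild type at 24 h, and 10 of the 11 changes were above 0, the highest being Sars at 0.21 (adjusted p = 0.0692). Between 24 h and 48 h, 5 members rose in wild type (Cars, Slc7a5, Ddit3, Chac1 and Nars, by 0.39, 0.41, 0.30, 0.25 and 0.20) and 0 fell, beside 8.33% and 5.58% of all genes. In the knockout 3 rose (Psph, Trib3 and Nars, by 0.37, 0.34 and 0.21) and 0 fell, beside 7.49% and 2.35%. All but those of Cars and Slc7a5 ended without 1 of several arrays, and without knockout 24 h array 1 or 48 h array 3 none of the 3 knockout calls was left. At an unadjusted p under 0.05, 10 members rose and 0 fell in each. Shares of all genes were counted at adjusted p alone. This count and the later ones at an unadjusted p therefore have no such share beside them. The comparisons with basal and those between 24 h and 48 h share arrays.

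The 48 h counts changed with the arrays that entered and with a covariate, and the share of all genes called changed with them. With the 48 h arrays numbered 1 and 2 alone, 2 members rose and 1 fell in wild type (Mthfd2, Slc7a5 and Ddit4) and 4 rose and 1 fell in the knockout (Asns, Slc7a3, Sars, Cars and Eif4ebp1), while with numbers 3 to 5 alone the counts were 18 and 2, and 13 and 1. With arrays 1 and 2, 5.82% of all wild-type changes were called up and 7.94% down, so that the wild-type count of members was near the share of all genes; the knockout shares were 9.2% and 6.85%. With arrays 3 to 5 the wild-type shares were 25.9% and 14.2%, and the knockout shares 20.5% and 7.95%. With a covariate for the Gapdh ratio, 6 rose and 3 fell in wild type (Ddit3, Asns, Mthfd2, Slc7a5, Slc7a3 and Sars rose), beside 9.08% and 10.8% of all genes, and 2 rose and 1 fell in the knockout (Slc7a3 and Sars rose), beside 8.1% and 5.9%. The ratio moves with the 48 h groups, so the covariate takes up part of the group difference itself, and the part of RNA integrity was not tested. Without knockout basal array 1, 7 members were called in the knockout, against 13 with it. Quantile and 75th-percentile scaling each gave 7 in the knockout as well, 6 of 30 higher and 1 lower. Of all tested genes, 14.5% were then higher and 15.9% lower with quantile scaling. With 75th-percentile scaling these shares were 13.2% and 18.6%.

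**Figure D3:**
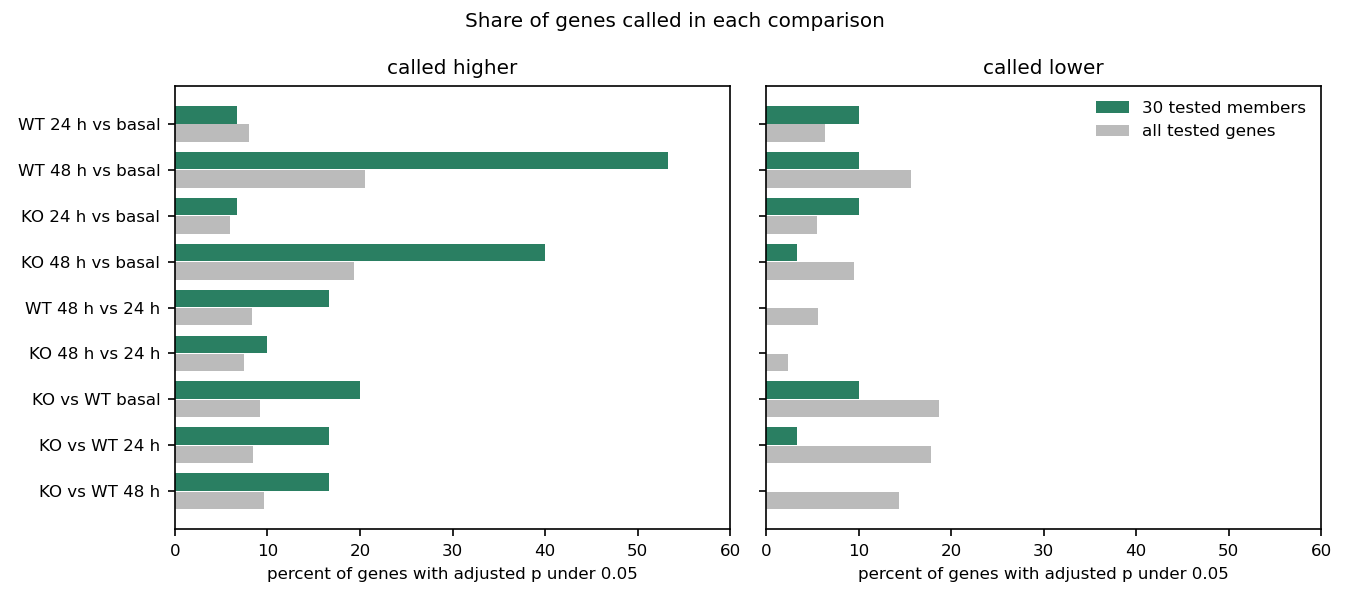
Percent of the 30 tested members (green) and of all tested genes (grey) called higher (left) or lower (right) at an adjusted p under 0.05, for 9 comparisons. The green bar passes the grey one by most at 48 h against basal, at 53.3% against 20.5% in wild type and 40% against 19.4% in the knockout.

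Other genes of the pathway were counted from lists kept apart from the members. Of 12 tested genes upstream of ATF4 (eIF2 subunits, kinases and phosphatase subunits), 3 rose at 24 h and 5 rose and 1 fell at 48 h in wild type, and 2 and 4 rose in the knockout. Eif2ak3, the ER stress kinase PERK, rose at every time: by 0.47 and 0.61 in wild type and by 0.46 and 0.38 in the knockout. Ppp1r15a encodes GADD34, which brings a phosphatase to eIF2 and is itself an ATF4 pathway target. It rose by 0.51 and 0.49 in wild type and by 0.50 at 48 h in the knockout. Of 17 other ATF4 targets, 1 rose and 4 fell at 24 h and 3 rose and 2 fell at 48 h in wild type, with 1 and 4, and 3 and 3, in the knockout. For these targets the rises at 48 h, 17.6% of the list in each genotype, lay under the 20.5% and 19.4% of all tested genes, and the falls at 24 h, 23.5% in each, over the 6.4% and 5.55%. Got1, which makes aspartate, rose in all 4 comparisons, by 0.35 to 0.50, and Gpt2, an alanine aminotransferase, fell in all 4, by 0.17 to 0.29. Bcat1, for branched-chain amino acids, rose at 48 h by 0.37 and 0.32.

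Of 10 tested genes for the remaining cytosolic synthetases and their partner proteins, 3 rose and 1 fell at 48 h in wild type. In the knockout 3 rose. These rises, 30% of the list in each genotype, stood beside 20.5% and 19.4% of all tested genes. Hars rose by 0.29 and 0.27 and Rars by 0.24 and 0.33. None of the 10 passed at 24 h in limma in either genotype; at an unadjusted p under 0.05, 5 rose in wild type and 1 in the knockout. Of 7 mitochondrial synthetases 0 rose in any of these 4 comparisons, with 1 (unadjusted p under 0.05) at 48 h in wild type and 0 in the others, and Pars2 fell at 24 h in both and at 48 h in wild type, by 0.55, 0.48 and 0.45. Of 6 other genes of serine, glycine and folate metabolism, 0 were called at 24 h in either genotype by limma, and Dld, a subunit of the glycine cleavage system and of other dehydrogenases, rose at 48 h by 0.59 and 0.58 (wild type, knockout), while Gldc, also of glycine cleavage, fell by 0.34 in wild type. Of 16 genes of the ER stress response, 4 rose at 24 h and 6 at 48 h in wild type, with Dnajb11 at 0.48 and Hyou1 at 0.41 at 24 h and Dnajb9 at 0.36 at 48 h. In the knockout 0 of the 16 passed in limma at either time, with 1 higher and 2 lower at 24 h and 1 higher at 48 h at an unadjusted p under 0.05. The wild-type rises, 25% and 37.5%, stood beside 8.04% and 20.5% of all tested genes. The knockout 0 stood beside 5.96% and 19.4%. In the interaction, the knockout change minus that of wild type, 0 of the 16 passed in limma at 24 h or 48 h. At an unadjusted p under 0.05, 2 were lower at each time. A response of these genes that differs by genotype was thus not shown.

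Cultures labelled knockout were also set against wild type at each time, to ask how the set differed by labelled genotype. At basal 6 members were higher and 3 lower (all tested genes 9.19% and 18.7%), at 24 h of BDNF 5 were higher and 1 lower (8.43% and 17.8%), and at 48 h 5 were higher and 0 lower (9.68% and 14.4%). The median difference of all tested genes was itself below 0, at -0.09, -0.09 and -0.07. That of the members was 0.02, -0.04 and -0.02. The same 5 genes, Eif4ebp1, Trib3, Sesn2, Mthfd2 and Slc7a3, were higher at all 3 times; each time has arrays of its own, but all come from the same pools. The other members called at basal were Slc7a5, higher, and Ddit4, Shmt2 and Lars, lower.

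Eif4ebp1 differed most. Its 5 knockout basal arrays, at 3.21 to 3.41, lay above the 5 wild-type arrays, at 2.15 to 2.28, and the difference was 1.10 ± 0.08 (2.14-fold, adjusted p = 3.86e-13). At 24 h the ranges were 2.62 to 2.91 and 1.80 to 1.95, with a difference of 0.89 ± 0.08 (adjusted p = 6.31e-11), and at 48 h 2.61 to 3.08 and 1.76 to 2.13, with 0.86 ± 0.08 (adjusted p = 1.23e-10). The groups did not overlap at any time, and the lowest knockout array under BDNF was above the highest wild-type basal array. A second Eif4ebp1 probe set gave 1.03, 0.85 and 0.82, all past the threshold in the fit of all probe sets, and the remaining one 0.24, 0.18 and 0.18, which did not pass.

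Trib3 read 1.23, 1.01, 1.03, 1.12 and 1.33 on knockout basal arrays and 0.74, 0.86, 0.71, 0.45 and 0.55 on wild-type ones, a difference of 0.48 ± 0.10 (1.40-fold, adjusted p = 0.000542). The difference was 0.44 ± 0.10 at 24 h (adjusted p = 0.00146), where the groups overlapped, and 0.66 ± 0.10 at 48 h (1.59-fold, adjusted p = 5.4e-06), where they did not. The second Trib3 probe set was higher in the knockout too, by 0.79, 0.73 and 0.64. Sesn2 read 2.32, 1.99, 2.02, 2.04 and 2.27 in the knockout and 1.62, 1.45, 1.72, 1.25 and 1.38 in wild type at basal, 0.65 ± 0.10 higher (1.56-fold, adjusted p = 8.85e-06), and was 0.48 and 0.41 higher at 24 h and 48 h, without overlap at any time. A second, dimmer Sesn2 probe set gave 0.40, 0.20 and 0.31, none past the threshold.

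**Figure D4:**
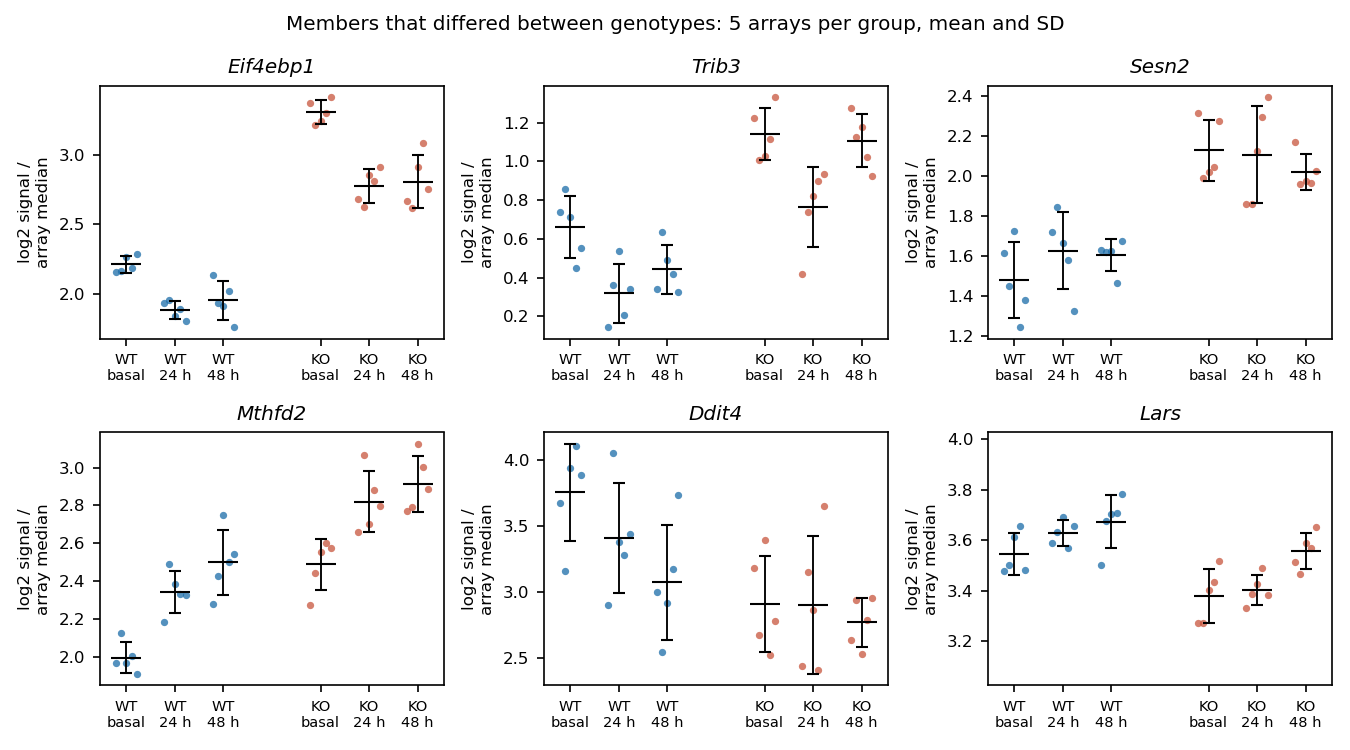
Log2 signal relative to the array median (vertical axis) of 6 members in the 6 groups; points are the 5 arrays of a group, with mean and SD. Eif4ebp1, Sesn2 and Mthfd2 show no overlap between knockout and wild type at any time, and Ddit4 is lower at basal in the knockout, at 2.52 to 3.40 against 3.16 to 4.11.

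On the supply side, Mthfd2 was 0.49 ± 0.09 higher in the knockout at basal (1.41-fold, adjusted p = 3.96e-05), with knockout arrays at 2.28 to 2.60 and wild-type arrays at 1.91 to 2.13, and 0.48 and 0.42 higher at 24 h and 48 h. The genotypes did not overlap in Mthfd2 at any time, although at 48 h by a narrow margin. A second Mthfd2 probe set gave 0.09, 0.13 and 0.33, of which the last passed. Slc7a3 was 0.57 ± 0.14 higher at basal (1.49-fold, adjusted p = 0.00268) without overlap, 0.57 higher at 24 h and 0.55 higher at 48 h. The knockout basal level of Slc7a3, 0.97 ± 0.12 (SD, n = 5), stood beside 1.01 ± 0.39 (SD, n = 5) in wild type after 48 h of BDNF, a pair that was not tested. Slc7a5 was 0.33 ± 0.11 higher at basal (adjusted p = 0.0193), with 0.18 and -0.12 at 24 h and 48 h, which did not pass, and the basal call ended without wild-type basal array 2 (0.28, adjusted p = 0.0616).

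Lower at basal were Ddit4, by -0.85 ± 0.22 (1.80-fold, adjusted p = 0.00365), Shmt2, by -0.31 ± 0.10 (adjusted p = 0.0177), and Lars, by -0.17 ± 0.06 (adjusted p = 0.0364). Ddit4 differed by -0.51 and -0.31 at 24 h and 48 h and Shmt2 by -0.17 and -0.23, none past the threshold. The basal calls of Shmt2 (-0.28 to -0.25) and Lars (-0.15 to -0.14) ended without wild-type basal array 4 or knockout basal array 2, that of Shmt2 also without knockout array 3, and that of Lars without wild-type array 3 or knockout array 1. Both basal calls also ended with 75th-percentile scaling and with values as deposited. That of Shmt2 ended with the mean of probe sets as well. That of Lars ended with quantile scaling and in a fit of only the arrays compared. Lars was lower at 24 h too, by -0.23 ± 0.06 (adjusted p = 0.00496), with wild-type and knockout arrays apart. The 24 h call of Lars ended with values as deposited (-0.06). Atf4 mRNA differed by 0.09, 0.08 and -0.10 at the 3 times, with intervals of -0.09 to 0.26, -0.09 to 0.26 and -0.28 to 0.07.

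Among the 17 other ATF4 targets, 4 were higher in the knockout at each time (23.5%, beside 9.19%, 8.43% and 9.68% of all genes) and 1, 0 and 2 were lower. Nupr1, a stress-induced nuclear protein, was higher by 1.46 at basal, 0.98 at 24 h and 1.35 at 48 h. Pck2, the mitochondrial PEP carboxykinase, was higher by 0.45, 0.76 and 0.93, Jdp2 by 0.76, 0.46 and 0.49, and Nfe2l2, which encodes NRF2, by 0.52, 0.57 and 0.67. Of the genes upstream of ATF4, Eif2s3x, a subunit of eIF2 encoded on the X chromosome, was higher by 0.42, 0.36 and 0.50. Eif2ak3 was lower in the knockout at 48 h, with a difference of -0.39. Of the ER stress response genes, 1 was higher and 2 lower at basal, and 7 and 4 of 16 were lower at 24 h and 48 h, with Dnajb9 at -0.38 and -0.52 and Sec61b at -0.21, -0.27 and -0.36. The shares of the 16 called lower, 12.5%, 43.75% and 25%, stood beside 18.7%, 17.8% and 14.4% of all genes. Of the 10 genes for other cytosolic synthetases and their partner proteins 2, 4 and 2 were lower, Hars at all 3 times by -0.21 to -0.24. As shares, 20%, 40% and 20% stood beside 18.7%, 17.8% and 14.4% of all genes, near that background at basal and 48 h. Of the 6 other genes of serine, glycine and folate metabolism, 3, 2 and 2 were lower and Shmt1 was higher at 24 h. Gldc was lower by -0.91, -0.66 and -0.55.

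Cell type markers differed between the genotypes as well. Of all tested genes, 9.19%, 8.43% and 9.68% were higher in the knockout at the 3 times, and 18.7%, 17.8% and 14.4% lower. Of 7 vascular and connective tissue markers 3 were tested, Pdgfrb, Col1a1 and Col1a2, and all 3 were higher in the knockout at each time, with medians of 0.87, 0.90 and 1.08. The mean level over the 7 was 0.18 to 0.50 on knockout basal arrays and -0.27 to 0.09 on wild-type ones. Of 7 progenitor markers 4, 5 and 3 were lower and 1, Vim, was higher, and the mean level over the 7 at basal was 2.53 to 2.72 in the knockout and 2.75 to 3.16 in wild type. Of 8 neuronal markers 1, 2 and 4 were lower and 0 higher, the lowest being Map2 at 48 h, at -0.72. The neuronal shares called lower, 12.5%, 25% and 50%, were near those of all genes at basal and 24 h. Of 5 microglial markers 1, 2 and 3 were higher, C1qb each time, and Cd68 was lower at 24 h and 48 h, by -0.65 and -0.86; the median of the 5 was 0.06, 0.27 and 0.54. Of the 2 astrocyte-list genes tested, Gja1 was higher at each time, by 0.76, 0.56 and 0.82, and Aldh1l1 was lower at basal and 48 h. Of 3 globin genes 0, 2 and 1 were higher, up to 1.19 for Hbb-bh1 at 24 h. The oligodendrocyte-lineage gene Olig1 was lower at basal, by -0.54. The part of these markers in the members' differences was not tested.

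Whether BDNF acted differently by genotype was asked of each member by the interaction, the change in the knockout minus that in wild type. No member passed at 24 h or at 48 h in limma (all tested genes 0.0269% higher and 0.0672% lower at 24 h, and 0.0672% each way at 48 h); at an unadjusted p under 0.05 there were 0 at 24 h and 2 at 48 h, both lower, Slc7a5 and Eif4ebp1. Slc7a5 had an interaction of -0.45 ± 0.15 at 48 h (adjusted p = 0.444), with an unadjusted interval of -0.76 to -0.14 in the limma fit. That of Eif4ebp1 was -0.24 ± 0.11 (adjusted p = 0.656). For Ddit4 it was 0.54 ± 0.31 with an interval of -0.09 to 1.17, for Atf4 -0.19 with an interval of -0.44 to 0.06, and for Asns at 24 h -0.24 with an interval of -0.50 to 0.02. A rise called in wild type and not in the knockout, such as that of Atf4, Ddit3 or Chac1, was thus not shown to differ between them.

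The remaining members were at the dim end. Slc7a11, the cystine transporter xCT, was at the floor on 18 of 30 arrays and Slc7a1, the cationic transporter CAT1, on 12, so neither was tested with the rest. Slc7a11 read -3.32 to -3.19 on wild-type basal arrays and -3.32 to -2.45 at 24 h, and Slc7a1 was at the floor on every knockout 48 h array. For Aars, a second probe set rose where the brightest did not, by 0.27 at 24 h and 0.40 at 48 h in wild type and by 0.39 at 48 h in the knockout. A second Cars probe set changed by 0.00 and 0.13 at 48 h, which did not pass. Both Nars probe sets and both Asns probe sets rose at 48 h in both genotypes.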

How the data were processed

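RNA of 30 dishes was labelled by 2-cycle cDNA synthesis and hybridised to Affymetrix Mouse Genome 430A 2.0 arrays, per the labels' protocols. The authors deposited signal intensity values from MAS5, per the series' design text and the submitters' processing notes; the file held 22690 probe sets, not yet divided by the array median. Annotation with a single symbol covered 20380 probe sets, several symbols 691 and none 1555; 64 controls were left out. Each array was divided by its median, floored at 0.1 and taken to log2, and the brightest probe set per gene was kept. In R 4.3.3, limma 3.58.1 fitted 1 mean per group over all 30 arrays for the upper 60% of genes, with an intensity trend, 2-sided tests and Benjamini-Hochberg adjustment over 7435 genes for each of 11 comparisons. The script was tested on simulated data. Members and gene lists were chosen with earlier results of these data known. Every member on the array was named; of other lists, those called with the largest changes, and beside them some chosen after their values were seen. Alternatives were other scalings, filters, probe set rules, samples, thresholds and covariates. Background correction and chip-level files are not analysed here.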

Additional observations from a re-analysis of the deposited data

Results flagged for a closer look

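In 6 of 180 groups of 5 arrays, a member had 1 array far from the others; about 1 in 20 groups is flagged by chance. Wild-type 48 h array 4 read 1.47 for Sesn2, with the next at 1.62 and the highest at 1.68. Wild-type basal array 4 read 2.33 for Slc7a5, with the next at 1.92 and the lowest at 1.77; the rise of Slc7a5 at 48 h in wild type passed without it. Knockout basal array 5 read 4.23 for Slc3a2, where the other four lay at 4.06. Wild-type 48 h array 1 read 4.74 for Gars, with the next at 4.94 and the highest at 5.02. Knockout 24 h array 1 was low for Gars, at 4.57 with the next at 4.77, and for Cars, at 1.39 with the next at 1.74.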

How the results depend on the processing

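Counts are members called in either direction. The main counts from basal were 5 at 24 h and 19 at 48 h for wild-type cultures, and 5 and 13 for knockout ones; from 24 h to 48 h they were 5 and 3, and between genotypes 9, 6 and 5. With values as deposited they became 1 and 1 at 24 h (wild type, knockout), 21 at 48 h in the knockout, and 24 and 16 from 24 h to 48 h, where scaling also moves the median of all genes, to 0.34 (wild type) and 0.29 (knockout) at 48 h; Eif4ebp1 at 48 h in wild type then turned to 0.053. Quantile and 75th-percentile scaling gave 7 each at 48 h in the knockout. The upper 40% of genes gave 3 between genotypes at 48 h. The mean of probe sets gave 3 at 24 h in each genotype and 2 from 24 h to 48 h in wild type; only the arrays compared gave 3 there. An adjusted p under 0.01 gave 3 and 1 at 24 h, 7 at 48 h in the knockout, and 1 and 0 from 24 h to 48 h. With 48 h arrays 1 and 2 alone, 48 h gave 3 and 5, and 24 h to 48 h 0 and 1; with arrays 3 to 5 alone, chosen after seeing the data, the last were 11 and 7. The Gapdh covariate gave 9 and 3 at 48 h and 0 and 0 from 24 h to 48 h. Correlations between dishes of the same number, over all tested genes, ran from -0.17 to 0.28 over 75 pairs and were above 0.1 in 23. Their median was 0.03, beside -0.01 for dishes of other numbers. The mean level of the globin genes was lowest on array 4 in every group but knockout 48 h. A pairing of dishes by number was thus neither shown nor excluded, and the main fit has none. The replicate block gave 8 and 7 from 24 h to 48 h and moved no other count by over 1.5 times. Without 1 array, counts ran from 4 to 6, 14 to 20, 2 to 6 and 7 to 13 from basal (wild type 24 h and 48 h, then knockout), 2 to 7 and 0 to 3 from 24 h to 48 h, and 7 to 10, 6 to 7 and 5 to 7 between genotypes. The lowest came without knockout 24 h array 2 (2), knockout basal array 1 (7), wild-type 24 h array 3 or 4 or 48 h array 3 (2), and knockout 24 h array 1 or 48 h array 3 (0). The interactions gave 0 in every setting run. Of 70 called member changes, 20 passed in every setting that tested them and without any 1 array. Among them were Eif4ebp1 and Mthfd2 between genotypes at all 3 times, Slc7a5 at 48 h in wild type and Sars and Slc7a3 at 48 h in the knockout. Slc7a3 and Trib3 were not in the upper 40% of genes, so that setting did not test them.

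The share of all calls that were higher moved with scaling (median, quantile, 75th percentile, as deposited): 56.6%, 42.8%, 39.9% and 97.9% for wild type at 48 h, 67.2%, 47.6%, 41.5% and 98.8% in the knockout, and 33.0%, 46.7%, 46.3% and 73.4% between genotypes at basal. The SE of a member's change ran from 0.06 (Lars) to 0.26 (Atf3), which limits what 5 arrays a group can show.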
